A study of Mus musculus with 12 samples.

Results

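Motile cilia are the beating cell projections that ciliated epithelial cells of the uterus and oviduct carry, and the genes described here are 41 genes that build or switch on this organelle. They were given as a list of gene names, not picked by a threshold on these values, and were read by symbol from a table of 55385 gene identifiers, in which all 41 were found. They comprise 7 regulators of the multiciliated cell fate and 34 structural members, which encode the dynein motors, spokes, rulers, inner proteins and assembly factors of the ciliary shaft.

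RNA sequencing was done on 12 mouse libraries in 3 groups of 4. The groups were HPmECC, a murine endometrial cancer line whose sample titles carry the code WT; mECC, a murine endometrial cancer line with the code DM; and cells of normal endometrium in primary culture, named normal in what follows, with the code B6. All came from the C57BL/6 strain, and the series' design text states that Myc, a growth-promoting transcription factor, was overexpressed in some of the lines without the labels saying in which. The titles do not explain the codes, and the labels give no driver mutation, animal age or animal number for any group. Each line is a single line. Whether the 4 libraries of a group trace to different cultures or mice is not stated, so the p-values cover library-to-library spread, which could be technical. Libraries held 16332060 to 26873582 counts.

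A motile cilium is a shaft of microtubule doublets around a central pair, the axoneme, along which rows of dynein arms slide neighbouring doublets to make the cilium bend. In mouse and human airway, oviduct and brain lining, the geminin relatives Gmnc and Mcidas start the program, Ccno and Myb act in the phase when many centrioles are made, and Foxj1 with RFX factors such as Rfx2 and Rfx3 switches on the axoneme genes. Loss of axoneme or dynein assembly genes causes primary ciliary dyskinesia. Most other cells carry a single primary cilium, which shares the transport machinery with motile cilia but lacks dynein arms and spokes.

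Most of the axoneme genes were at or near 0 in all 3 groups. Only 17 of the 41 genes passed the count filter and entered the test, whereas 62.9% of 21897 protein-coding genes did. The 24 others had 1 to 94 counts summed over all 12 libraries, and 12 of them had 10 or fewer. In HPmECC 9 genes had no count, against 5 in mECC and 4 in normal. A count of 0 over the 4 libraries of a group allows up to 3 counts, which is 0.0307 CPM (counts scaled to library size) in HPmECC, 0.0294 CPM across mECC and 0.0406 CPM across normal, for counting error only. A level of 1 TPM, the deposited value scaled to transcript length and library size, was reached by 6 of the 34 structural members in HPmECC, 5 in mECC and 9 in normal. Among all protein-coding genes 53.4% reached it in HPmECC, 54.1% in mECC and 55.9% in normal. The name of a motile cilia program thus describes the genes' known roles, and most structural members stayed below 1 TPM in each group.

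**Figure D1:**
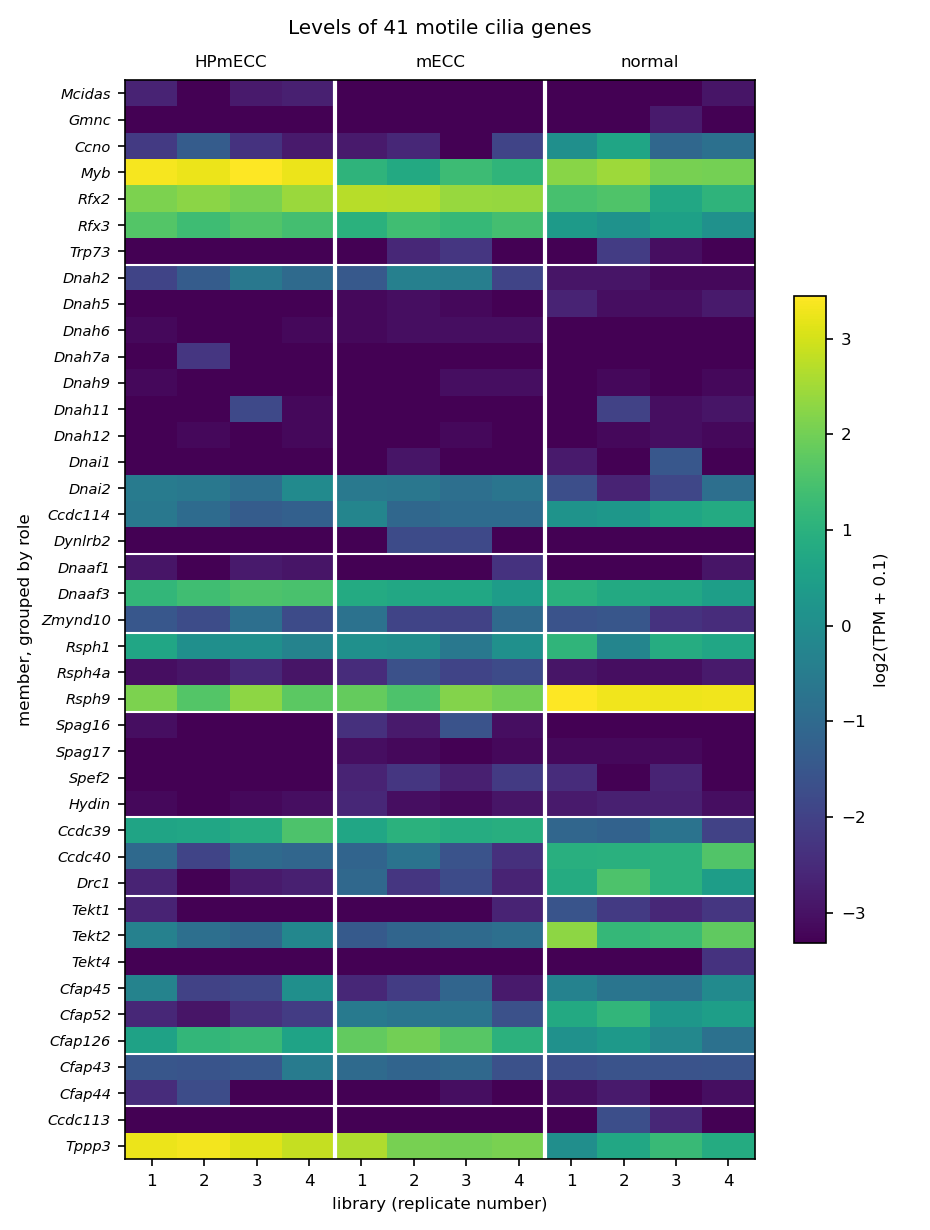
Levels of the 41 motile cilia genes in each of the 12 libraries, as log2(TPM + 0.1), with genes grouped by role and libraries ordered HPmECC, mECC, normal. Most rows are at the bottom of the scale in every library, and Myb, Rfx2, Rfx3, Rsph9 and Tppp3 stand out.

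The summed level of the 34 structural members was 24.1, 22.8, 24.6 and 22.8 TPM in the HPmECC libraries, 21.7, 19.6, 19.8 and 17.1 TPM in the mECC libraries, and 29.9, 27.1, 26.7 and 27.4 TPM in the normal libraries. The groups did not overlap, with normal highest and mECC lowest. Most of each sum came from few genes, since the median structural member had a mean level of 0.0425 TPM in HPmECC, 0.122 TPM in mECC and 0.0725 TPM in normal. Tppp3 alone had a mean of 8.75 TPM in HPmECC, 4.575 TPM in mECC and 1.61 TPM in normal. The order of the lines in the sum rests on it, since without Tppp3 the mean sum of mECC was not below that of HPmECC. In bulk samples, fewer cells of a type and less RNA per cell cannot be told apart.

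The regulators that start the program were barely detected. Mcidas had 5 counts over the HPmECC libraries, 0 over the mECC libraries and 1 over the normal libraries. Gmnc had 0, 0 and 2 counts in HPmECC, mECC and normal. Trp73, a p53 relative that multiciliated cells of mouse airway and oviduct need, had 0 counts in HPmECC, 3 in mECC and 2 in normal. None of these 3 genes passed the count filter or was called in a fit without it, and each of their library levels was at most 0.110 CPM.

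Ccno, a cyclin-like protein of centriole amplification, was below the count filter and was highest in normal. It was measured at 0.128, 0.322, 0.105 and 0.0368 CPM in HPmECC, 0.0428, 0.0727, 0 and 0.213 CPM in mECC, against 0.88, 0.571, 0.441 and 0.551 CPM in normal. All 4 normal libraries were above all 8 libraries of the lines, with 15 counts in HPmECC and 8 in mECC against 44 in normal. A fit without the filter called it lower in HPmECC (edgeR adjusted p 0.000741) and in mECC (edgeR adjusted p 5.45e-06) than in normal. Mcidas and Ccno are neighbours on chromosome 13, and they are the regulators for which a promoter sequence with a match to the RFX half-site was found. The 250 bases before each start are printed for that reason, from RefSeq on GRCm38.p6, on the plus strand at chr13:112993618-112993867 for Mcidas and chr13:112987552-112987801 for Ccno. Capitals mark matches to the half-site GTTGCCA, and in Ccno the capitals also cover a match of the opposite strand to the full RFX X-box, a palindrome of half-sites, which overlaps the half-site.
Mcidas: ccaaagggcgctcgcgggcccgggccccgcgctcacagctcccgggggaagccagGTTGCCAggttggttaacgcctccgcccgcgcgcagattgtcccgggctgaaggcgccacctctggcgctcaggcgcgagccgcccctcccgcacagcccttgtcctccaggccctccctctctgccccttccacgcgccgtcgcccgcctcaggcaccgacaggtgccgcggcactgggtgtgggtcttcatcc
Ccno: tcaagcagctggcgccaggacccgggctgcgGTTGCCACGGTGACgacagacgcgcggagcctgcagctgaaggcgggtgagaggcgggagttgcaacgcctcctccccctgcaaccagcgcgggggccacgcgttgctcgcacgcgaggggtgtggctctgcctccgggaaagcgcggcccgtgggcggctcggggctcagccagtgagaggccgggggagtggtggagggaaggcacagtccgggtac

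Myb, the transcription factor best known from blood progenitors, which also acts early in multiciliated cells of mouse airway, differed in all 3 comparisons. It was measured at 19.9, 18.2, 20.0 and 17.7 CPM in HPmECC, 3.51, 2.94, 4.38 and 3.70 CPM in mECC, against 9.75, 11.6, 8.93 and 8.81 CPM in normal. HPmECC was highest, normal was between and mECC was lowest, with no overlap between groups. Its log2 fold change was 2.38 ± 0.11 (SE) in HPmECC against mECC, with an edgeR adjusted p of 5.49e-13. It was -1.42 in mECC against normal (edgeR adjusted p 1.40e-09) and 0.96 in HPmECC against normal (edgeR adjusted p 2.23e-08). The last pair of comparisons shares the normal libraries, as do all pairs of such values below.

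Rfx2 and Rfx3, winged-helix factors that bind X-boxes in promoters of ciliary genes, were expressed in all groups and higher in both lines than in normal. Rfx2 was at 8.01, 8.54, 7.82 and 9.03 CPM in HPmECC, 10.1, 8.76, 9.57 and 8.81 CPM in mECC, against 4.94, 4.78, 3.42 and 4.18 CPM in normal. Rfx3 was at 13.9, 12.1, 13.5 and 12.3 CPM in HPmECC, 8.17, 10.2, 9.24 and 11.1 CPM in mECC, against 5.62, 4.93, 5.67 and 4.55 CPM in normal. Every library of the lines was above every normal library for both genes. Against normal, Rfx2 had log2 fold changes of 0.96 in HPmECC (edgeR adjusted p 1.08e-07) and 1.11 in mECC (edgeR adjusted p 1.08e-08). Rfx3 had 1.32 in HPmECC (edgeR adjusted p 7.11e-10) and 0.91 in mECC (edgeR adjusted p 2.32e-07). Between the lines, Rfx3 was higher in HPmECC by 0.41 ± 0.09 (SE) on the log2 scale (edgeR adjusted p 0.000557), a call that limma on log2(TPM + 1) did not make (adjusted p 0.0971), nor did limma on log2(TPM + 0.1) (adjusted p 0.162). Rfx2 did not pass the test between the lines (log2 fold change -0.15, edgeR adjusted p 0.156).

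Foxj1, the forkhead factor that is the best-known switch of motile cilia, is not among the 41 genes but was measured beside them. It was at 0.767, 0.679, 0.472 and 0.405 CPM in HPmECC, 26.9, 22.5, 25.8 and 25.2 CPM in mECC, against 3.93, 3.95, 3.69 and 4.09 CPM in normal. The mECC libraries were far above the rest, with a log2 fold change of -5.41 in HPmECC against mECC (edgeR adjusted p 2.78e-17) and 2.68 in mECC against normal (edgeR adjusted p 1.47e-15). In HPmECC against normal it was -2.74 (edgeR adjusted p 1.60e-11). In mECC, where Foxj1 was highest, the summed level of the structural members was the lowest of the 3 groups and their median level was the highest. The place of mECC below HPmECC in that sum rests on the structural member Tppp3. The 84 further axoneme genes described below summed to 359 to 393 TPM in HPmECC and 372 to 401 TPM in mECC, against 210 to 227 TPM in normal. Of these 84, 12 had no count in HPmECC, 13 in mECC and 17 in normal. Which genes carry these sums was not examined.

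**Figure D2:**
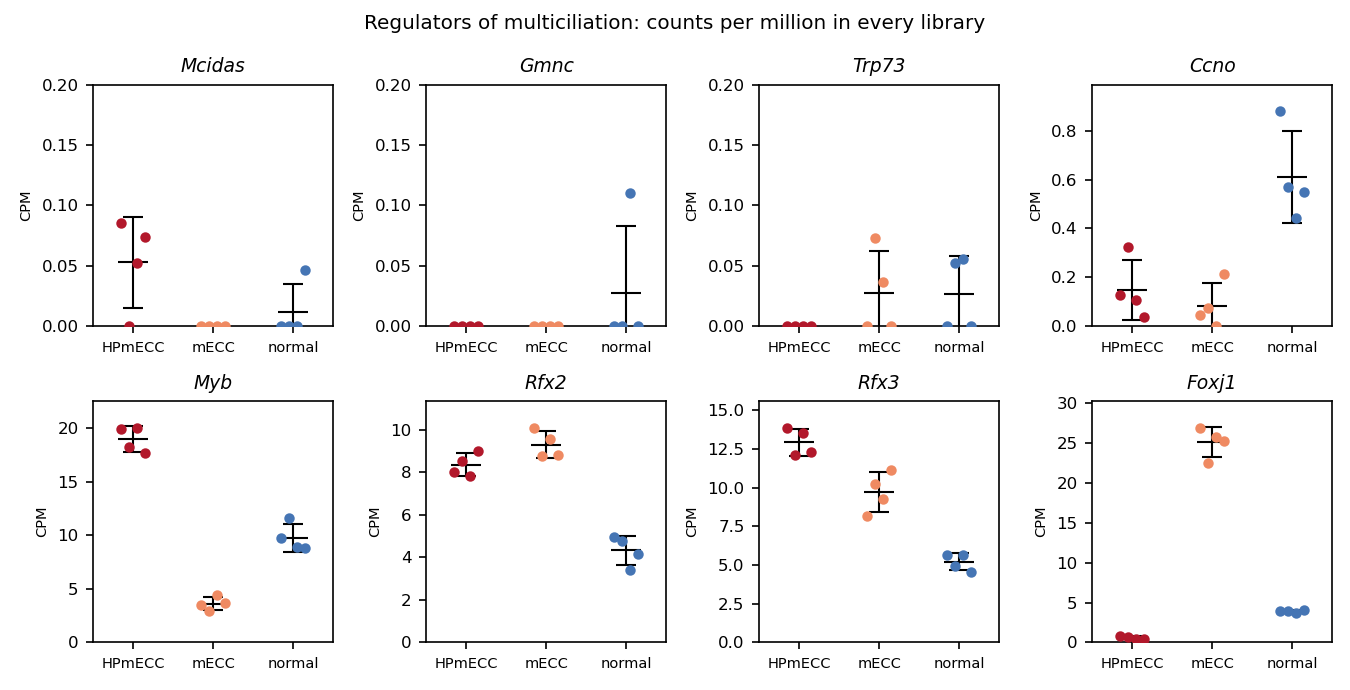
CPM of the regulators and of Foxj1 in each library (points) with the group mean and SD (line and whisker), for HPmECC, mECC and normal, on axes that start at 0 and differ between panels. Foxj1 is high in mECC, where Myb is lowest, and Mcidas, Gmnc and Trp73 are at most 0.110 CPM in every library.

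In HPmECC against mECC, 6 of the 17 tested genes were called higher and 2 lower, beside 33.8% higher and 34.5% lower among all 15283 genes tested. In mECC against normal, 6 were higher and 9 lower, beside 42.1% and 44.2% of all genes. In HPmECC against normal, 8 were higher and 8 lower, beside 43% and 43.3% of all genes. The median log2 fold change of the tested members was 0.29, -1.12 and 0.04 in these comparisons, and that of all genes was between -0.02 and 0.00. In either direction 8, 15 and 16 of the 17 were called, beside 68.3%, 86.3% and 86.4% of all genes. Being called thus does not set these genes apart in the comparisons with normal. In HPmECC against mECC, 35.3% of the tested members were higher and 11.8% lower, so fewer were lower than among all genes. Whether that gap exceeds chance for 17 genes was not tested. A gene that passed the count filter through 1 high group had to differ, so these counts do not describe the 41 genes as a whole. Scaling to library totals in place of TMM factors moved the median of all genes to 0.22 in mECC against normal and 0.20 in HPmECC against normal, and the fold changes given here are relative to the TMM scale.

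**Figure D3:**
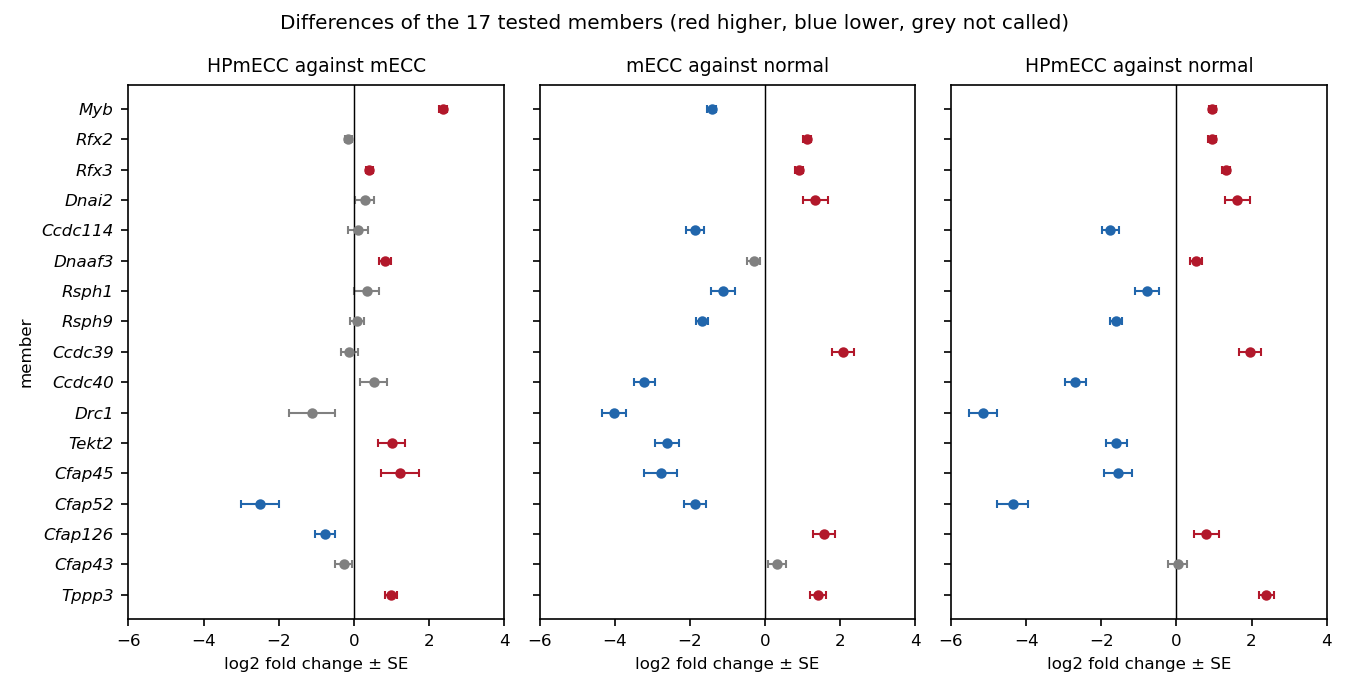
Log2 fold changes with SE of the 17 tested motile cilia genes in HPmECC against mECC, mECC against normal and HPmECC against normal. Red points were called higher, blue points lower and grey points were not called at an edgeR adjusted p of 0.05; Drc1 lies farthest to the left for both lines against normal, followed by Cfap52 in HPmECC and Ccdc40 in mECC.

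The largest fold change from normal among the tested members was that of Drc1, in both lines. Drc1, a subunit of the nexin link that joins doublets and limits their sliding, was at 0.0853, 0, 0.0525 and 0.0737 CPM in HPmECC, 0.0855, 0.145, 0.145 and 0.0851 CPM in mECC, against 2.17, 1.71, 2.09 and 2.02 CPM in normal. The lines were close to the detection limit, with 5 counts in HPmECC and 12 in mECC against 147 in normal. For Drc1, the log2 fold change was -5.14 ± 0.37 (SE) in HPmECC against normal (edgeR adjusted p 1.97e-10) and -4.02 ± 0.32 in mECC against normal (edgeR adjusted p 7.38e-10). Between the lines it was -1.11 and not called (edgeR adjusted p 0.136), although limma on log2(TPM + 0.1) called it (adjusted p 0.0241).

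Ccdc40 and Ccdc39 form the ruler that sets the spacing of dynein arms and spokes, and they moved in opposite directions. Ccdc40 was at 0.512, 0.393, 0.472 and 0.442 CPM in HPmECC, 0.299, 0.254, 0.507 and 0.17 CPM in mECC, against 2.03, 3.01, 2.59 and 3.99 CPM in normal. Ccdc39 was at 1.75, 1.93, 1.57 and 2.54 CPM in HPmECC, 2.27, 2.36, 2.32 and 1.57 CPM in mECC, against 0.677, 0.571, 0.661 and 0.184 CPM in normal. Ccdc40 was lower in every library of the lines than in any normal library, and Ccdc39 was higher in all of them. For Ccdc40 the log2 fold change was -2.69 in HPmECC against normal (edgeR adjusted p 2.57e-08) and -3.21 in mECC against normal (edgeR adjusted p 4.13e-09). For Ccdc39 it was 1.95 in HPmECC against normal (edgeR adjusted p 6.19e-06) and 2.07 in mECC against normal (edgeR adjusted p 2.48e-06). Ccdc39 shares 16.9% of its exon bases with Ttc14 on the opposite strand, which had 2462 counts in HPmECC, 2757 in mECC and 3010 in normal. No strand setting is given in the sources used here, so the Ccdc39 values are uncertain.

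Cfap52, a protein inside the doublet tubules, had the largest fold change between the lines among the tested members. It passed the count filter through its normal libraries. It was at 0.0426, 0.0357, 0.0525 and 0.111 CPM in HPmECC, 0.47, 0.363, 0.399 and 0.255 CPM in mECC, against 1.96, 1.61, 0.992 and 1.01 CPM in normal. The 3 groups did not overlap, with totals of 6 counts in HPmECC, 38 in mECC and 100 in normal. The log2 fold change was -2.50 ± 0.51 (SE) in HPmECC against mECC (edgeR adjusted p 0.00028), -1.86 in mECC against normal (edgeR adjusted p 1.27e-05) and -4.36 in HPmECC against normal (edgeR adjusted p 1.34e-08). In the fit without the filter, Spef2 (log2 fold change -4.81), Dnah5 (-4.24) and Spag16 (-2.85) had larger called falls in HPmECC against mECC. An overlapping gene, 9130017K11Rik, shares 8.36% of the exon bases of Cfap52 and had 7 counts in HPmECC, 58 in mECC and 59 in normal; its part in the result was not tested. Among the tested members, Drc1 and Cfap52 had the largest falls in HPmECC against normal. The 250 bases before their starts are printed for that reason, from RefSeq on GRCm38.p6. Those of Drc1 are at chr5:30281143-30281392 on the plus strand and those of Cfap52 at chr11:67965643-67965892 on the minus strand. Capitals mark a half-site match on the opposite strand, which begins 12 bases before the Drc1 start, and Cfap52 has no match to the exact half-site letters.
Drc1: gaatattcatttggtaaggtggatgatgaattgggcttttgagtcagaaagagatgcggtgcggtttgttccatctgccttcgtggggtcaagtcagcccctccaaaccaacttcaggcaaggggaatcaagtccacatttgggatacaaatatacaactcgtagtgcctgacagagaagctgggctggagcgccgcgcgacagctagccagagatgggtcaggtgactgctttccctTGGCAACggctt
Cfap52: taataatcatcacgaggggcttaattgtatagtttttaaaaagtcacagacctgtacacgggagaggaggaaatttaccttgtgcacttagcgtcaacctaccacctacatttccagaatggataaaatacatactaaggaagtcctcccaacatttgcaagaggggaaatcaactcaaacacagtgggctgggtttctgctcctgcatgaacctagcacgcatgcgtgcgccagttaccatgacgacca

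Tekt2, a filament protein of the doublets, was at 0.554, 0.357, 0.262 and 0.626 CPM in HPmECC, 0.214, 0.145, 0.254 and 0.298 CPM in mECC, against 1.83, 1.40, 1.21 and 1.24 CPM in normal. Both lines were below normal, with log2 fold changes of -1.60 in HPmECC (edgeR adjusted p 3.13e-05) and -2.61 in mECC (edgeR adjusted p 2.95e-07). HPmECC was higher than mECC by 1.00 on the log2 scale (edgeR adjusted p 0.0199), although the libraries overlapped. This call was lost without HPmECC replicate 1 (edgeR adjusted p 0.056), HPmECC replicate 4 (0.0847) or mECC replicate 2 (0.069), and with limma on log2(TPM + 1) (adjusted p 0.33) or log2(TPM + 0.1) (adjusted p 0.136).

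Cfap45, another inner tubule protein, averaged 0.321 CPM across HPmECC, 0.132 CPM across mECC and 0.975 CPM across normal libraries. The log2 fold change was 1.22 in HPmECC against mECC (edgeR adjusted p 0.043), with overlapping libraries, and the call was lost without HPmECC replicate 1 (0.127), HPmECC replicate 4 (0.148), mECC replicate 1 (0.0989) or mECC replicate 4 (0.118), and with limma on log2(TPM + 1) (0.0805) or log2(TPM + 0.1) (0.0607). It was -2.78 in mECC against normal (edgeR adjusted p 1.02e-05) and -1.56 in HPmECC against normal (edgeR adjusted p 0.000916), a call that limma on log2(TPM + 1) did not make (adjusted p 0.333), nor did limma on log2(TPM + 0.1) (adjusted p 0.278).

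Cfap126, a doublet protein known in mouse for docking of basal bodies, was higher in the lines. It was at 0.554, 0.751, 0.892 and 0.589 CPM in HPmECC, 1.37, 1.31, 1.27 and 0.766 CPM in mECC, against 0.542, 0.468, 0.386 and 0.23 CPM in normal. Of the mECC libraries 3 were above all others and replicate 4 lay within the HPmECC range. The log2 fold change was 1.57 in mECC against normal (edgeR adjusted p 9.67e-05), and in HPmECC against mECC it was -0.77 (edgeR adjusted p 0.0133). In HPmECC against normal it was 0.80 (edgeR adjusted p 0.0317), and this call was lost without HPmECC replicate 2 (0.0669), HPmECC replicate 3 (0.0813), normal replicate 3 (0.0588) or normal replicate 4 (0.126), with DESeq2 (adjusted p 0.0632) and with no filter (edgeR adjusted p 0.0511).

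Of the spoke genes, Rsph9, a spoke head protein, was the structural member with the highest level per length in normal, at a mean of 9.95 TPM. It was at 2.00, 1.43, 2.15 and 1.55 CPM in HPmECC, 1.58, 1.27, 1.99 and 1.79 CPM in mECC, against 5.82, 5.25, 5.07 and 5.23 CPM in normal. The lines overlapped and lay below normal, with log2 fold changes of -1.60 in HPmECC (edgeR adjusted p 1.90e-08) and -1.68 in mECC (edgeR adjusted p 9.08e-09). Rsph1, also of the spoke head, was at 0.853, 0.572, 0.577 and 0.368 CPM in HPmECC, 0.556, 0.472, 0.326 and 0.511 CPM in mECC, against 1.42, 0.519, 1.10 and 1.06 CPM in normal. Normal replicate 2 lay within the range of the lines. The log2 fold change was -1.12 in mECC against normal (edgeR adjusted p 0.004) and -0.78 in HPmECC against normal (edgeR adjusted p 0.0298). The HPmECC call was lost without HPmECC replicate 2, 3 or 4 or normal replicate 1, 3 or 4, at edgeR adjusted p of 0.0533 to 0.106, and with library totals (0.0945), no filter (0.0511) or limma on log2(TPM + 1) (0.105) or log2(TPM + 0.1) (0.141). The third spoke gene, Rsph4a, had 8 counts in HPmECC, 34 in mECC and 5 in normal and was below the filter. Without the filter it was called lower in HPmECC against mECC (log2 fold change -1.94, edgeR adjusted p 0.00747) and higher in mECC against normal (log2 fold change 2.24, edgeR adjusted p 0.00332).

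Among the dynein arm genes, only Ccdc114 and Dnai2 passed the count filter. Ccdc114, a docking complex protein that anchors outer arms, was at 0.682, 0.572, 0.42 and 0.442 CPM in HPmECC, 0.47, 0.545, 0.435 and 0.511 CPM in mECC, against 1.63, 1.51, 1.76 and 2.30 CPM in normal. It was lower in both lines without overlap, at log2 fold changes of -1.76 in HPmECC (edgeR adjusted p 1.15e-06) and -1.87 in mECC (edgeR adjusted p 5.28e-07). Dnai2, an intermediate chain of the outer arm, averaged 0.797 CPM across HPmECC, 0.664 CPM across mECC and 0.26 CPM across normal libraries, with log2 fold changes against normal of 1.63 in HPmECC (edgeR adjusted p 0.00015) and 1.34 in mECC (edgeR adjusted p 0.00118). The arm genes thus moved in both directions.

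The dynein heavy chains, the motors themselves, were at trace levels. Dnah5, the outer arm motor, had 0 counts in HPmECC, 10 in mECC and 26 in normal. With HPmECC set to a floor of 3 counts, Dnah5 was 11.4-fold lower there than in normal, leaving out the counting error of the 26 counts. Dnah11 had 1, 1 and 23 counts in HPmECC, mECC and normal, and it overlaps Cdca7l on the opposite strand over 4.44% of its exon bases. Dnah2 had 43 counts in HPmECC, 37 in mECC and 14 in normal. The heavy chains Dnah6, Dnah7a, Dnah9 and Dnah12 had at most 11 counts in any group, and Dnai1 and the light chain Dynlrb2 at most 2. In the fit without the filter, Dnah5 was called lower in HPmECC than in mECC (edgeR adjusted p 0.00403), and lower in HPmECC (edgeR adjusted p 3.92e-07) and in mECC (edgeR adjusted p 0.0157) than in normal. Dnah11 was called lower than normal in HPmECC (edgeR adjusted p 5.94e-05) and in mECC (edgeR adjusted p 4.05e-05). Its normal libraries were uneven, with 0, 14, 3 and 6 counts in replicates 1 to 4, and normal replicate 1 overlapped the lines. Dnah2 was called higher in HPmECC against normal (edgeR adjusted p 0.0321), and Dnah6 higher in mECC against normal (edgeR adjusted p 0.00734). Values of Dnah7a are uncertain because its near-identical neighbour Dnah7b, a tandem relative, was at 1.77 CPM across HPmECC, 1.38 CPM across mECC and 0.268 CPM across normal libraries.

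Of the dynein assembly factors, which fold and preassemble the arms in the cytoplasm, only Dnaaf3 passed the count filter. It was at 2.69, 3.11, 3.52 and 3.43 CPM in HPmECC, 1.97, 1.85, 1.85 and 1.49 CPM in mECC, against 2.64, 2.29, 2.20 and 1.84 CPM in normal. HPmECC was higher than mECC without overlap by 0.82 ± 0.15 (SE) on the log2 scale (edgeR adjusted p 9.32e-05), and higher than normal by 0.52 (edgeR adjusted p 0.00463). In mECC against normal it was -0.31 and not called (edgeR adjusted p 0.0911), but was called without normal replicate 4 (edgeR adjusted p 0.0411). Zmynd10 had 20, 24 and 9 counts in HPmECC, mECC and normal, and Dnaaf1 had 3 counts in HPmECC, 3 in mECC and 1 in normal.

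The central apparatus genes, Spag16, Spag17, Spef2 and Hydin, were all below the count filter, with at most 33 counts in any group. Hydin, a large protein of the central pair projections, had 8 counts in HPmECC, 6 in mECC and 33 in normal. Spag16 had 1 count in HPmECC, 11 in mECC and 0 in normal. Spef2 had 0 counts in HPmECC, 15 in mECC and 2 in normal. With HPmECC set to a floor of 3 counts, Spef2 was 4.79-fold lower there than in mECC, leaving out the counting error of the 15 counts. Without the filter, Hydin was called lower in HPmECC (edgeR adjusted p 0.000564) and in mECC (edgeR adjusted p 7.87e-05) than in normal. Spef2 was then called lower in HPmECC against mECC (edgeR adjusted p 0.000971). Spag16 was then called lower in HPmECC against mECC (edgeR adjusted p 0.0386) and higher in mECC against normal (edgeR adjusted p 0.00787). The remaining trace members were Tekt1, Tekt4, Cfap44 and Ccdc113, with at most 8 counts in any group, of which Tekt1 was called lower in HPmECC (edgeR adjusted p 0.0378) and in mECC (edgeR adjusted p 0.0338) than in normal without the filter.

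Cfap43, a tether of the inner arms, was at 0.895, 0.751, 0.787 and 1.25 CPM in HPmECC, 1.28, 1.16, 1.27 and 0.766 CPM in mECC, against 0.745, 0.935, 0.937 and 0.964 CPM in normal. The groups overlapped and the gene was not called, except in mECC against normal under library totals (edgeR adjusted p 0.0411). Cfap43 shares 2.32% of its exon bases with Itprip on the same strand. Itprip had 9028 counts in HPmECC, 8713 in mECC and 6053 in normal, and its part in the Cfap43 values was not tested. Tppp3, a tubulin-binding protein often used as a marker of ciliated cells but also made by other cell types, rose in the lines. It was at 5.12, 5.18, 4.93 and 3.90 CPM in HPmECC, 2.86, 2.22, 2.17 and 2.34 CPM in mECC, against 0.609, 0.623, 1.21 and 1.10 CPM in normal. The 3 groups did not overlap. For Tppp3, the log2 fold change was 1.00 ± 0.16 (SE) in HPmECC against mECC (edgeR adjusted p 2.00e-05), 1.40 in mECC against normal (edgeR adjusted p 7.11e-06) and 2.40 in HPmECC against normal (edgeR adjusted p 1.39e-09). Tppp, its relative, averaged 0.0897 CPM across HPmECC and 0.088 CPM across mECC, against 1.70 CPM in normal.

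**Figure D4:**
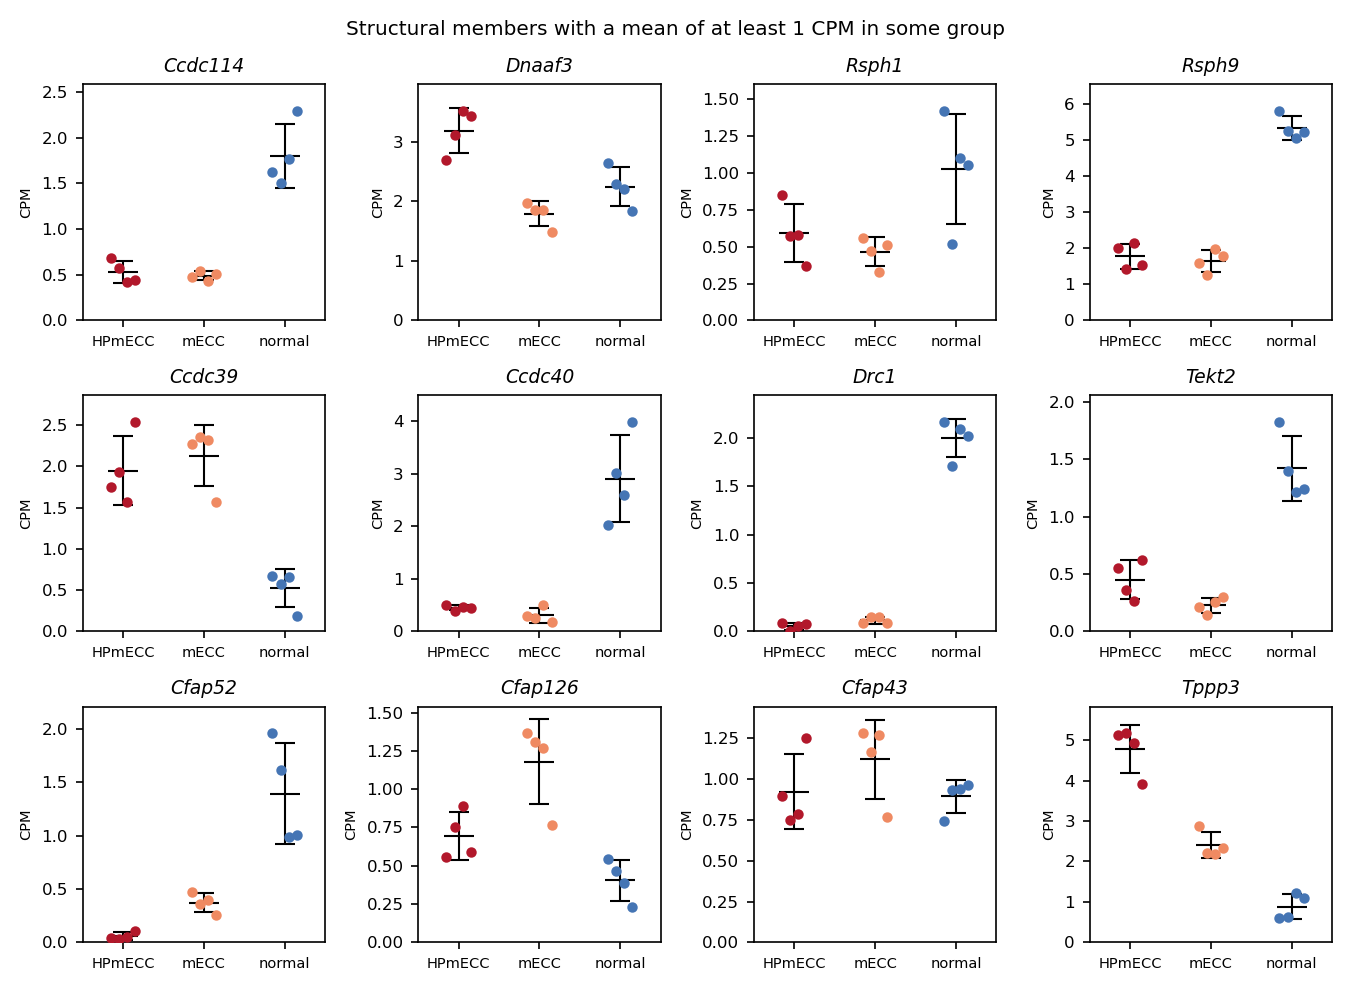
CPM of the structural members with a mean of at least 1 CPM in a group, per library (points) with group mean and SD (line and whisker), for HPmECC, mECC and normal. Drc1, Ccdc40, Rsph9 and Tekt2 are highest in normal, and Ccdc39 and Tppp3 are higher in both lines.

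The genes of the primary cilium and of transport within it, by contrast, were expressed in every group. All 58 such genes listed were tested, and 58 reached 1 TPM in HPmECC, 58 in mECC and 57 in normal, with a median level of 13.6 TPM in HPmECC, 14.1 TPM in mECC and 7.51 TPM in normal. Of them, 42 were higher and 8 lower in HPmECC against normal, and 43 were higher and 9 lower in mECC against normal, with medians of 0.75 on the log2 scale in both. In HPmECC against mECC, 13 were higher and 23 lower (median -0.08). Among all genes tested, 43% were higher and 43.3% lower in HPmECC against normal, and 42.1% and 44.2% in mECC against normal. Between the lines these shares were 33.8% and 34.5%. Kifap3, a kinesin adaptor, was 5.98-fold higher in mECC than in normal, and Wdr19, a retrograde transport subunit, was 4.55-fold higher. Between the lines, Bbs1 and Dync2h1 were 2.67-fold and 1.66-fold higher in HPmECC.

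**Figure D5:**
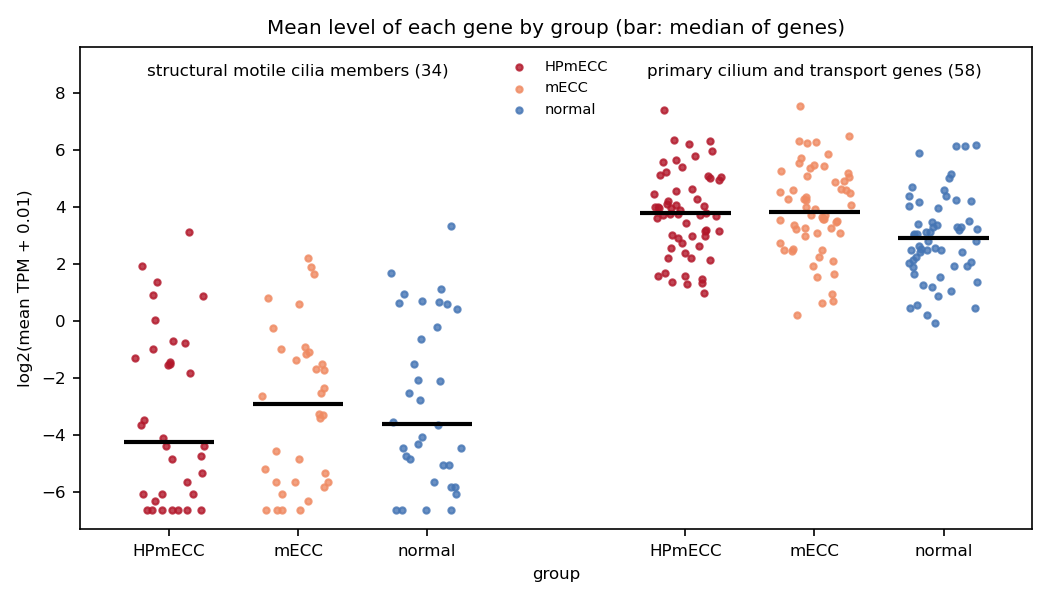
Mean level of each of 34 structural motile cilia members and of 58 primary cilium and transport genes in HPmECC, mECC and normal, as log2(mean TPM + 0.01), with a bar at the median. The primary cilium genes lie at medians of 13.6 TPM in HPmECC, 14.1 TPM in mECC and 7.51 TPM in normal, and the structural members at 0.0425 TPM in HPmECC, 0.122 TPM in mECC and 0.0725 TPM in normal.

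Other genes of the pathway were also in part below the count filter. Beside the counts below, 33.8% of all genes tested were higher and 34.5% lower in HPmECC against mECC. The shares of all genes were 42.1% and 44.2% in mECC against normal, and 43% and 43.3% in HPmECC against normal. Of 84 further axoneme genes found of 85 listed, 40 were tested. In HPmECC against mECC 8 were higher and 13 lower, in mECC against normal 23 and 10, and in HPmECC against normal 20 and 11, with median log2 fold changes of -0.07, 0.65 and 0.57 in that order of comparisons. Mlf1 and Cfap100 were 1.64-fold and 1.59-fold lower in HPmECC than in mECC, and 6.31-fold and 22.4-fold higher in mECC than in normal. Of 13 further multiciliation factors 8 were tested, of which 4 were higher and 2 lower in HPmECC against mECC, 3 and 5 in mECC against normal, and 2 and 6 in HPmECC against normal (medians 0.09, -0.25 and -0.36). Under library totals the split in mECC against normal became 4 and 4. Plk4, the kinase that starts centriole duplication, was higher in HPmECC, by 1.50-fold over mECC, and Jazf1 was 7.38-fold lower in mECC than in normal. Of 18 centriole duplication genes, 6 (33.3%) were higher and 4 (22.2%) lower in HPmECC against mECC (median 0.09). The split was 9 (50%) and 6 (33.3%) in mECC against normal (median 0.12). It was 13 (72.2%) and 4 (22.2%) in HPmECC against normal (median 0.24). Under library totals these splits became 5 and 5 in HPmECC against mECC and 11 and 3 in mECC against normal. Poc1b and Cep97 were 4.13-fold and 3.72-fold higher in mECC than in normal, and Spice1 was higher in HPmECC, by 1.45-fold over mECC.

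Of 12 close relatives of the 41 genes, 11 were tested. In HPmECC against mECC 5 were higher and 3 lower, beside 33.8% and 34.5% of all genes tested. In each line against normal 7 were higher and 4 lower. The shares of all genes there were 42.1% and 44.2% for mECC and 43% and 43.3% for HPmECC. Trp63, at 6.99 CPM across HPmECC and 0.143 CPM across normal libraries, was highest in mECC, where it was 77.5-fold above normal. Trp53 averaged 1.47 CPM across HPmECC, 2.14 CPM across mECC and 141 CPM across normal libraries. Mybl1 averaged 8.13 CPM across HPmECC, 3.62 CPM across mECC and 11.0 CPM across normal libraries, and Mybl2 averaged 49.7 CPM across HPmECC, 36.8 CPM across mECC and 24.4 CPM across normal libraries. Both lines thus lay below normal for Mybl1 and above it for Mybl2. Gmnn, the geminin that names the family of Gmnc and Mcidas, averaged 32.2 CPM across HPmECC, 22.3 CPM across mECC and 16.8 CPM across normal libraries. Rfx1 averaged 33.7 CPM across HPmECC, 30.2 CPM across mECC and 21.4 CPM across normal libraries. Rfx5, at 27.4 CPM across HPmECC, 27.8 CPM across mECC and 18.1 CPM across normal libraries, was also higher in the lines. Rfx7, at 48.3 CPM across HPmECC, 33.9 CPM across mECC and 65.7 CPM across normal libraries, was lower in them. Dynlrb1, the widely expressed relative of Dynlrb2, averaged 122 CPM across HPmECC, 130 CPM across mECC and 94.3 CPM across normal libraries. Dnah7c had 10 counts in HPmECC, 8 in mECC and 3 in normal.

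Markers of other cell types moved with the groups. The summed level of 20 luminal and glandular epithelial markers was 367 to 387 TPM in HPmECC, 1775 to 1837 TPM in mECC and 11360 to 12262 TPM in normal, with none of the 20 at 0 in any group. All 20 were lower in HPmECC than in mECC, beside 34.5% of all genes tested. Of the 20, 18 were lower in mECC than in normal, beside 44.2% of all genes tested. The 10 stromal markers summed to 5345 to 5573 TPM in HPmECC, 4624 to 5038 TPM in mECC and 1066 to 1302 TPM in normal. By gene, 5 stromal markers were higher and 5 lower in each of the 3 comparisons, with median log2 fold changes of -0.16 in HPmECC against mECC, 0.26 in mECC against normal and -0.25 in HPmECC against normal. Among all genes tested, 33.8% were higher and 34.5% lower in HPmECC against mECC. These shares were 42.1% and 44.2% in mECC against normal, and 43% and 43.3% in HPmECC against normal. The summed levels of the remaining lineages were highest in normal. The 7 smooth muscle markers summed to 202 to 284 TPM in HPmECC, 60.0 to 62.3 TPM in mECC and 2332 to 2832 TPM in normal. The 5 mesothelial markers summed to 8.55 to 11.8 TPM in HPmECC, 36.4 to 44.6 TPM in mECC and 360 to 388 TPM in normal, with Upk3b, Lrrn4 and Upk1b at 0 counts in HPmECC and Wt1 and Upk1b at 0 in mECC. The 9 leukocyte markers summed to 3.99 to 6.29 TPM in HPmECC, 2.66 to 5.07 TPM in mECC and 189 to 211 TPM in normal, with Ptprc, Adgre1 and Cd3e at 0 in HPmECC and Cd52 and Cd3e at 0 in mECC. The 7 endothelial markers summed to 1.91 to 2.77 TPM in HPmECC, 1.39 to 1.52 TPM in mECC and 34.4 to 37.9 TPM in normal, with Cdh5, Tek and Tie1 at 0 in HPmECC. The part of these cell types in the differences from normal was not tested.

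The promoter table held windows for 37 of the 41 genes. Within 250 bases before to 50 bases after the start, on both strands, the RFX half-site GTTGCCA was found in 7 of the 37 genes (18.9%), against 5.02% of all 27025 genes in the table. They were Ccno, Cfap44, Drc1, Hydin, Mcidas, Tekt1 and Zmynd10. The palindromic RFX X-box, which can overlap a half-site, was found in Ccno, Tekt4 and Zmynd10 (8.11%, against 1.49% of all genes). The forkhead core GTAAACA was found in 2 of 37 genes (5.41%, against 4.05%), and the E-box CACGTG in 2 of 37 (5.41%, against 8.09%). These are letter matches and not measured binding sites. Only fixed patterns were searched, so looser variants of the RFX sites were not counted.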

How the data were processed

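RNA sequencing was done on 12 libraries with TruSeq mRNA preparation, per the labels' protocols. Per the submitters' processing notes, Trim Galore, STAR 2.6.1a and RSEM 1.3.1 were used with mouse build GRCm38. For the annotation release and strand setting, the sources used here give nothing. The deposited expected counts of RSEM are estimated counts per gene, written as whole numbers, and the deposited TPM values were scaled by the authors to transcript length and library. FPKM was not used. RSEM divides reads between near-identical genes, so such genes are uncertain.

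Of 55385 gene identifiers, 55144 matched a symbol, and Dnai1 and Dnai2 were matched through other symbols. Coordinates came from the GENCODE mouse annotation on GRCm38. The count test was that of edgeR 4.0.16 (R 4.3.3), the quasi-likelihood test in 1 fit of the 12 libraries, with a coefficient for each of the 3 groups, TMM scaling and filterByExpr at its minimum of 10 counts. The Benjamini-Hochberg adjustment ran over 15283 genes, and the threshold was 0.05. The biological coefficient of variation was 4.27%. CPM values are TMM-scaled, and TPM was used to compare levels between genes. Groups at 0 counts were set to a floor of 3 counts over 4 libraries, which covers counting error only. Fold values from this floor leave out the counting error of the other group.

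All 41 genes are accounted for. Values in every library are given for regulators and for structural members with a mean of at least 1 CPM in a group, and for some others that the text turns on, which were chosen after their values were seen. From each other list up to 4 genes were taken by size of change among called genes of at least 5 CPM, and the relatives of members and Foxj1 were named in any case. From the marker lists of other cell types, sums and genes at 0 are given. The members and the lists were chosen with earlier results of these data known. The scripts were tested on simulated data. Settings tried beside these were scaling by median-of-ratios or by library totals, no filter, a minimum of 1 CPM in 4 libraries, DESeq2 1.42.0, limma 3.58.1 on log2(TPM + 1) and log2(TPM + 0.1), a minimum fold of 2, the replicate number as a block, fitting just the pair of groups compared, and each library left out.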

Additional observations from a re-analysis of the deposited data

Results flagged for a closer look

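Of 27 sets of 4 libraries with a mean of at least 1 CPM, 2 held a library that stood far from the other 3, and chance gives about 1 in 20. Ccdc39, a ruler protein of the axoneme, was at 1.57 CPM in mECC replicate 4, against 2.27 to 2.36 CPM in the other mECC libraries. Cfap126, a doublet protein, was at 0.766 CPM in mECC replicate 4, against 1.27 to 1.37 CPM in the other mECC libraries. Both values come from the same library.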

How the results depend on the processing

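No called member changed direction under any alternative. Apart from the minimum fold of 2, single calls changed for Rsph1, Cfap126, Tekt2, Cfap45, Rfx3, Dnaaf3, Drc1 and Cfap43. In HPmECC against mECC the 2 genes called lower became 6 with no filter, 0 with a minimum of 1 CPM, 1 with a fit of only these groups and 1 with a minimum fold of 2. The 6 called higher became 3 with limma on log2(TPM + 1), 3 on log2(TPM + 0.1) and 3 with a minimum fold of 2. In mECC against normal the 9 called lower became 14 with no filter. In HPmECC against normal the 8 called lower became 5 with a minimum of 1 CPM, and the 8 called higher became 4 with a minimum fold of 2. With each library left out, the counts were 4 to 6 higher and 2 to 2 lower in HPmECC against mECC, 6 to 7 and 9 to 10 in mECC against normal, and 7 to 9 and 7 to 9 in HPmECC against normal. The filters changed which genes were tested, and the cause of the other changes was not tested. Deviations of same-numbered libraries from their group means had correlations of -0.027 to 0.080, against -0.048 to 0.043 for differently numbered libraries. All were weak, and in each comparison the highest was between same-numbered libraries. With the replicate number as a block 5 genes were higher and 2 lower in HPmECC against mECC, 6 and 9 in mECC against normal, and 8 and 8 in HPmECC against normal. Under that block the call of Cfap45 between the lines was lost (edgeR adjusted p 0.0678). Depth limits most members: with 1 to 94 counts over 12 libraries, the 24 genes below the filter gave calls when it was lifted for Ccno, Dnah2, Dnah5, Dnah6, Dnah11, Rsph4a, Spag16, Spef2, Hydin and Tekt1, and in that fit differences in the others were not detectable at this depth. The share of all genes called in the fit without the filter was not measured, so these calls cannot be set against a general rate.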
